A study of Aedes aegypti with 33 samples.

Results

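A20 is a cell line of the yellow fever mosquito Aedes aegypti. Its transcriptome was compared after 72 h in serum-free SF900 II medium with 10 µM added heme and after 72 h in L-15 medium with 10% fetal bovine serum (FBS), the usual growth medium of the line. The comparison rests on 6 of the 33 libraries of the series, chosen by cell line and treatment: 3 biological replicates labelled heme and 3 labelled regular medium. Another A20 group of 3 libraries, SF900 II with 0 µM heme for the same time, enters the same model and is given beside the main comparison. Serum, basal medium and added heme change together between heme and serum, so their parts cannot be told apart in this comparison. The heme and 0 µM groups differ in the added heme, and the 0 µM and serum groups in medium and serum. All 9 libraries come from 1 cell line, and messenger RNA was sequenced as paired 150-base reads.

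Heme is the iron-containing group of cytochromes, catalases and other enzymes, and free heme promotes oxidation of lipids and proteins. Blood-feeding mosquitoes take in large amounts of it from digested haemoglobin, and cells must balance uptake, synthesis, use and detoxification. Serum supplies cells in culture with growth factors, lipids, transferrin-bound iron and protein-bound heme, and insulin and TOR signalling link such nutrients to the making of ribosomes.

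The 9 libraries held between 23843591 and 27586128 counts over the annotated genes, and 12249 genes passed the filter on low counts. Composition set the heme libraries apart. The 10 genes with most reads took 14.05%, 17.59% and 15.52% of the counts in heme replicates 1, 2 and 3 and 10.99% to 11.45% in serum. The factors by which the TMM scaling corrects for composition were 0.8339, 0.685 and 0.7151 in heme against 1.098 to 1.134 in serum. The median log2 difference between heme and serum over all tested genes was 0.02 after TMM and -0.56 with library size alone, a shift that applies to every value below, and directions were read under both scalings. Heme replicate 1 lay nearer to the other groups than heme replicates 2 and 3 did. Its distance from them was 1.81 and 1.92 on the log2 scale, against 1.06 between those 2 libraries, 0.934 to 1.12 within serum and 2.53 to 3.1 between heme and serum.

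At a false discovery rate (FDR) below 0.0001, the study's threshold, edgeR's quasi-likelihood test called 1329 genes, 10.8% of those tested. Of these, 547 were higher (4.47%) and 782 lower (6.38%) in heme. The study itself used edgeR's exact test, which called 3930 genes here, and the study's own count lies between 1329 and 3930. The quasi-likelihood counts were sensitive to the threshold and to single libraries. An FDR below 0.05 took in 7266 genes, 59.3% of those tested, and the 3 heme and 3 serum libraries did not overlap in 64.1% of all genes. Without serum replicate 1, 2 or 3 the stricter count was 418, 63 or 77 genes, without 0 µM replicate 1, 2 or 3 it was 661, 451 or 464, and without heme replicate 1, 2 or 3 it was 3277, 397 or 286. In this text a gene rose or fell only where it passed the stricter FDR, levels are counts scaled to the TMM-corrected library size (CPM), and differences are log2 values with the standard error of the fit. Transcript levels in bulk RNA do not tell fewer cells of a kind from less RNA per cell. The gene lists below come mostly from genes with an annotated position, which passed more often than all tested genes. In 5 groups of 300 such genes, from short to long, 58, 39, 12, 1 and 6 rose and 1, 14, 32, 68 and 53 fell. The shares of all genes set beside the lists are therefore low for annotated genes.

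The proteins of the cytosolic ribosome made up the most uniform group. Of 34 annotated members tested, 33 rose in heme and none fell, against the 4.47% of all genes that rose, and the median difference was 1.55. The remaining member, RpL24 of the large subunit, stood at 0.81 ± 0.11 with an adjusted p of 0.00027. With library size alone the median was 0.96, all 34 differences were still positive and 27 members passed, where 1.57% of all genes rose and 11.8% fell. In all 34 genes the lowest heme library lay above the highest serum library, which held for 30.8% of all tested genes. Together the 34 genes took 7.03%, 7.39% and 7.28% of all counts in serum replicates 1, 2 and 3, and 13.3%, 14.3% and 13.9% in heme. The 0 µM group was on the other side of serum, at 5.51%, 5.21% and 4.97%. Without serum replicate 1, 2 or 3 the number of members past the stricter FDR was 14, 0 or 0, and without heme replicate 3 it was 20, while in each of these fits all 34 were higher at an FDR of 0.05, where 29.3% of all genes were with all libraries.

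**Figure D1:**
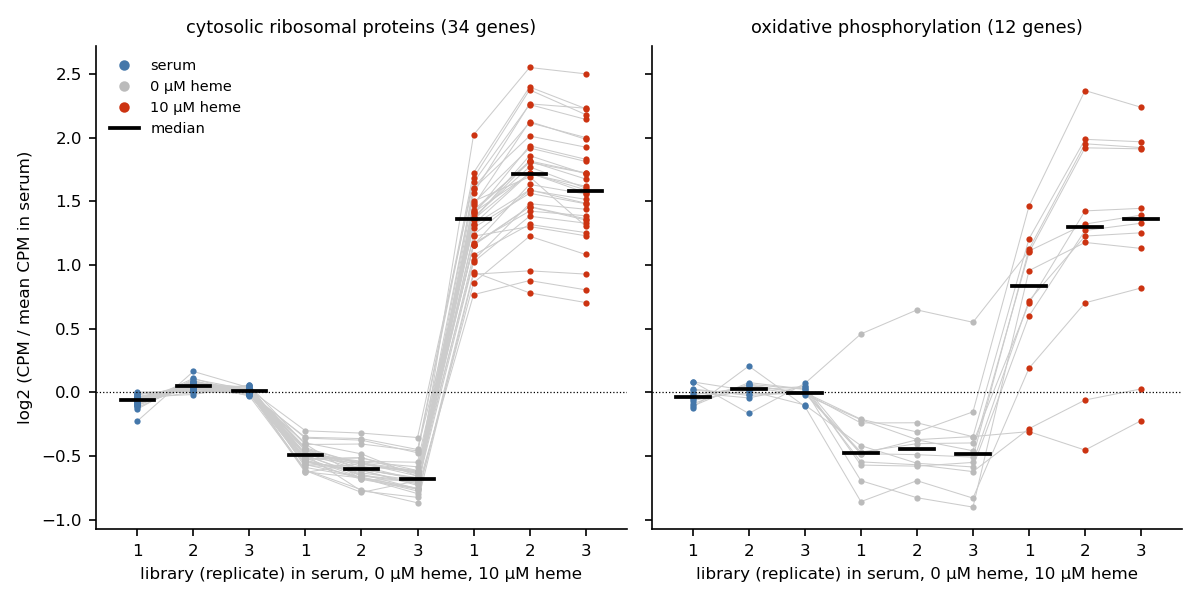
Each line follows 1 gene across the 9 A20 libraries, drawn as the log2 ratio of its CPM to its own mean in serum, for 34 cytosolic ribosomal proteins and 12 genes of oxidative phosphorylation. All 34 ribosomal protein genes sit above the serum libraries in each of the 3 heme libraries, and heme replicate 1 is the lowest of the 3 for 32 of them.

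RpS2 (AAEL010168, chr3:149352734-149354357, AaegL5), a protein of the small subunit near the mRNA entry site, had 4261, 5017 and 4729 CPM in serum. It had 3027, 2929 and 2729 CPM in 0 µM heme and 13811, 22432 and 21903 CPM in 10 µM heme. All heme libraries were far above the others, with replicate 1 the lowest, and the log2 difference from serum was 2.05 ± 0.17 (adjusted p = 2e-05, edgeR). RpLP1 (AAEL005027, chr2:443915240-443915787), an acidic protein of the stalk that recruits elongation factors, rose most in the group. Its levels were 67.5, 73.6 and 68.3 CPM in serum and 283, 409 and 395 CPM in heme, a log2 difference of 2.38 ± 0.15. RpS29 (AAEL007824), RpS28 (AAEL006860) and the 60S protein L39 (AAEL020290) followed at 2.14 ± 0.16, 2.04 ± 0.15 and 2.11 ± 0.16, and RpL19 (AAEL024536) had the smallest difference of the 33 that rose, 0.82 ± 0.09.

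RpS7 (AAEL009496), of the small subunit, was the reference gene of the study's RT-qPCR, run on midguts and Aag2 cells and not on A20 cells. It had 1590, 1775 and 1672 CPM in serum, 1191, 1065 and 1028 CPM in 0 µM heme and 3543, 4184 and 4004 CPM in 10 µM heme. The groups did not overlap, and the log2 difference between 10 µM heme and serum was 1.22 ± 0.10 (adjusted p = 1.7e-05, edgeR). The difference from 0 µM heme was 1.84, and with library size alone heme and serum differed by 0.63. The primers for this gene and for 4 transporter candidates are shown because they mark the part of each transcript those assays amplify, written 5′ to 3′.
rpS7 forward: accgccgtctacgatgcca
rpS7 reverse: atggtggtctgctggttctt
AAEL000417 forward: caacttttgaccgtgtccgt
AAEL000417 reverse: ggaaccgcgtgacagtttta
AAEL000461 forward: agcactgttttcttgttttctca
AAEL000461 reverse: gcttctgtcctgcatttgtttc
AAEL001495 forward: agcagtcccattcgatcgat
AAEL001495 reverse: tccgctgacagttggatctt
AAEL012440 forward: ggtgagttcaacgtatcggg
AAEL012440 reverse: cgtgaacaccttgtcgatga

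The 4 candidates with these primers were picked by the study, partly from these libraries, so their values are no independent evidence. None passed the stricter FDR between heme and serum. AAEL001495 had 5.15, 6.92 and 5.57 CPM in serum, 43.3, 51.0 and 50.1 CPM in 0 µM heme and 8.95, 4.25 and 5.57 CPM in 10 µM heme. It was high in 0 µM heme and overlapped between 10 µM heme and serum, where the log2 difference was 0.10 ± 0.25. AAEL012440, annotated as a sodium-bile acid cotransporter, differed by 0.51 ± 0.13 (adjusted p = 0.0063, edgeR). AAEL000417, annotated as a monocarboxylate transporter, differed by -0.74 ± 0.15, and AAEL000461 by -1.18 ± 0.23. Under library size alone the differences of AAEL001495 and AAEL012440 turned negative, at -0.45 and -0.08.

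Of 19 initiation and elongation factors 5 rose and 1 fell, against 4.47% and 6.38% of all genes, with a median of 0.45. The median was -0.13 under library size alone, where none rose and 3 fell, against 1.57% and 11.8% of all genes, so that none of the risers named next passed there. The number that rose was 8 without heme replicate 1, 3, 2 and 2 without 0 µM replicates 1, 2 and 3, 1 without heme replicate 2, and 0 without heme replicate 3 or any serum replicate. The risers were initiation factors: the eIF3 subunits AAEL012661, AAEL006115 and AAEL007945, at 1.13 ± 0.09, 1.06 ± 0.10 and 1.04 ± 0.08, the factor 1A (AAEL003174) at 1.34 ± 0.15, and AAEL003661 at 0.95 ± 0.08. AAEL012661 had 421, 391 and 378 CPM in serum and 872, 871 and 866 CPM in heme, about the same in each heme library. Polyadenylate-binding protein (AAEL010318), which holds the poly(A) tail and promotes initiation, fell from 2758, 3153 and 3162 CPM to 1435, 1545 and 1556 CPM in heme (adjusted p = 3e-05, edgeR). Elongation factor 1-alpha (AAEL017096), which carries aminoacyl-tRNA to the ribosome, differed by 0.44 ± 0.11 and did not pass. Of 16 aminoacyl-tRNA synthetases none rose or fell, where 10.8% of all genes did, with a median of 0.50 that was -0.08 under library size alone. At an FDR of 0.05, 10 of the 16 were higher and 1 lower, where 29.3% and 30% of all genes were. Without heme replicate 1, 2 of them rose.

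Of 15 genes of ribosome biogenesis 3 rose and 1 fell, against 4.47% and 6.38% of all genes, and the median was -0.20. With library size as the only scaling 0 were higher and 5 lower, with a median of -0.75, against 1.57% and 11.8% of all genes. Without heme replicate 1, 3 were higher and 5 lower, without 0 µM replicate 1, 1 was higher and none lower, and without any other single library none passed. The U3 small nucleolar ribonucleoproteins AAEL005263 and AAEL004997, which act in processing of the pre-rRNA, rose by 1.25 ± 0.13 and 0.99 ± 0.10, and the DEAD box helicase AAEL013359 rose by 0.72 ± 0.08. A ribosomal pseudouridine synthase (AAEL001242) fell by 2.03 ± 0.24 on the log2 scale, from 18.6, 15.6 and 16.3 CPM to 5.42, 4.19 and 2.7 CPM. The largest subunit of RNA polymerase I (AAEL013134), which transcribes the rRNA genes, differed by -0.60 ± 0.12 and did not pass the stricter FDR.

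Of 12 annotated genes of oxidative phosphorylation 6 rose and none fell, with a median of 1.16, and of 7 genes of mitochondrial translation 3 rose and none fell, with a median of 1.20, where 4.47% of all genes rose. Under library size alone these medians were 0.56 and 0.60, and 1 gene of each list rose, AAEL007054 and mRpL42, where 1.57% of all genes did. The 12 genes took 0.496% to 0.526% of all counts in serum, 0.342% to 0.366% in 0 µM heme and 0.668% to 0.749% in 10 µM heme. The number past the stricter FDR was 9 of 12 and 5 of 7 without heme replicate 1, 2 and 1 without 0 µM replicate 1, and 0 and 0 without any other single library.

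AAEL007054, annotated as NADH dehydrogenase and so a part of the first complex of the respiratory chain, had 55.5, 53.6 and 54.4 CPM in serum. In heme it had 150, 281 and 257 CPM, all above serum with replicate 1 the lowest, for a difference of 2.07 ± 0.21 (adjusted p = 4e-05, edgeR). A second NADH dehydrogenase gene (AAEL008490), the D chain of the ATP synthase (AAEL004423), a cytochrome c oxidase polypeptide (AAEL014944), the ATPase inhibitor (AAEL004284) and the ADP/ATP carrier (AAEL004855) rose by 1.76, 1.71, 1.69, 1.28 and 1.09. Other subunits did not: the ATP synthase beta subunit (AAEL003393) differed by 0.59 ± 0.17, succinate dehydrogenase (AAEL010608) by -0.10 ± 0.10 and the NADH-ubiquinone oxidoreductase AAEL012552 by -0.33 ± 0.09. The mitochondrial ribosomal protein mRpL42 (AAEL005190) rose from 30.1, 22.6 and 23.6 CPM to 97.1, 182 and 169 CPM, and mRpL12 (AAEL006117) and mRpS6 (AAEL004034) rose by 1.72 ± 0.18 and 1.38 ± 0.16. GrpE (AAEL004438), the exchange factor of the mitochondrial Hsp70, rose by 1.697 ± 0.19, and a protein of inner membrane import (AAEL008128) by 2.01 ± 0.19. Of the 13 genes in the chaperone list GrpE was the 1 that rose, where 4.47% of all genes rose, and mitochondrial chaperonin of 60 kD (AAEL011584) stood at -0.80 ± 0.15.

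Genes of heme synthesis did not pass the stricter FDR. None of 6 annotated genes was called, and the median was 0.76, or 0.17 under library size alone. At an FDR of 0.05, 4 were higher, where 29.3% of all genes were, and under library size alone 1 was higher and 1 lower at that FDR. Without heme replicate 1, 4 of the 6 passed the stricter FDR. 5-aminolevulinic acid synthase (AAEL007787), the first and rate-limiting enzyme, had 12.2, 34.1 and 31.2 CPM in serum and 15.8, 24.9 and 22.4 CPM in heme. The groups overlapped, serum replicate 1 was the lowest library of all, and the difference was -0.30 ± 0.35 (adjusted p = 0.49, edgeR). Later steps had positive differences that did not pass: porphobilinogen synthase (AAEL002304) at 0.53 ± 0.10, coproporphyrinogen III oxidase (AAEL013389) at 0.79 ± 0.17, and the cytochrome c1 heme lyase (AAEL014630), which attaches heme to the protein, at 1.03 ± 0.15. Protoheme IX farnesyltransferase (AAEL001479, chr2:262304007-262324141), which makes heme o for cytochrome oxidase, had 131, 125 and 126 CPM in serum, 95.6, 82.0 and 83.1 CPM in 0 µM heme and 206, 210 and 219 CPM in 10 µM heme. Its groups did not overlap and differed by 0.74 ± 0.09 with an adjusted p of 0.00014, just outside the threshold. Between 10 µM and 0 µM heme, which share the heme libraries with the main comparison, 3 of the 6 genes rose, where 9.79% of all genes rose, and the median was 1.05. Under library size alone 1 of the 6 passed in that contrast, with a median of 0.33.

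None of 10 genes of iron, copper and zinc handling passed, where 10.8% of all genes did. Their median was 0.26, or -0.32 under library size alone, where 1 gene fell. At an FDR of 0.05, 3 were higher and 1 lower, where 29.3% and 30% of all genes were. Transferrin (AAEL011641, chr3:281619118-281626580), a secreted iron carrier, had 5.37, 3.82 and 4.69 CPM in serum and 6.41, 6.44 and 4.97 CPM in 10 µM heme, with overlapping ranges. In 0 µM heme it was higher, at 19.7, 17.9 and 16.2 CPM, so that 10 µM differed from 0 µM by -1.59 (adjusted p = 5.3e-05, edgeR) while heme and serum differed by 0.36 ± 0.18. The ZIP family transporter AAEL014762 varied within heme, with 156 CPM in replicate 1 and 38.5 and 32.3 CPM in the others. Ferredoxin (AAEL006428), an electron carrier of iron-sulfur cluster synthesis, stood at 1.11 ± 0.17 and did not pass. No gene annotated as ferritin, heme oxygenase or ferrochelatase was found among the annotation used here.

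Of 10 genes of redox defence 2 rose and none fell, against 4.47% of all genes that rose, and the median was 0.76. The median was 0.16 under library size alone and 1 gene, glutaredoxin, rose there. The number that rose was 5 without heme replicate 1, 1 without serum replicate 1 and 0 without any other single library. Glutaredoxin (AAEL013980), which reduces glutathionylated proteins, rose from 60.4, 61.1 and 62.7 CPM to 148, 243 and 217 CPM, a difference of 1.72 ± 0.17. It was also above serum in 0 µM heme, at 88.0, 98.1 and 91.5 CPM. Sulfiredoxin (AAEL003599), which repairs over-oxidised peroxiredoxins, rose by 1.25 ± 0.14, from 6.78, 6.51 and 6.59 CPM to 13.8, 17.6 and 15.8 CPM. The copper-zinc superoxide dismutase AAEL019937 stood at 1.703 ± 0.24 and thioredoxin peroxidase TPX4 (AAEL002309) at 1.44 ± 0.19, and both missed the stricter FDR with adjusted p of 0.00024 and 0.00018.

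**Figure D2:**
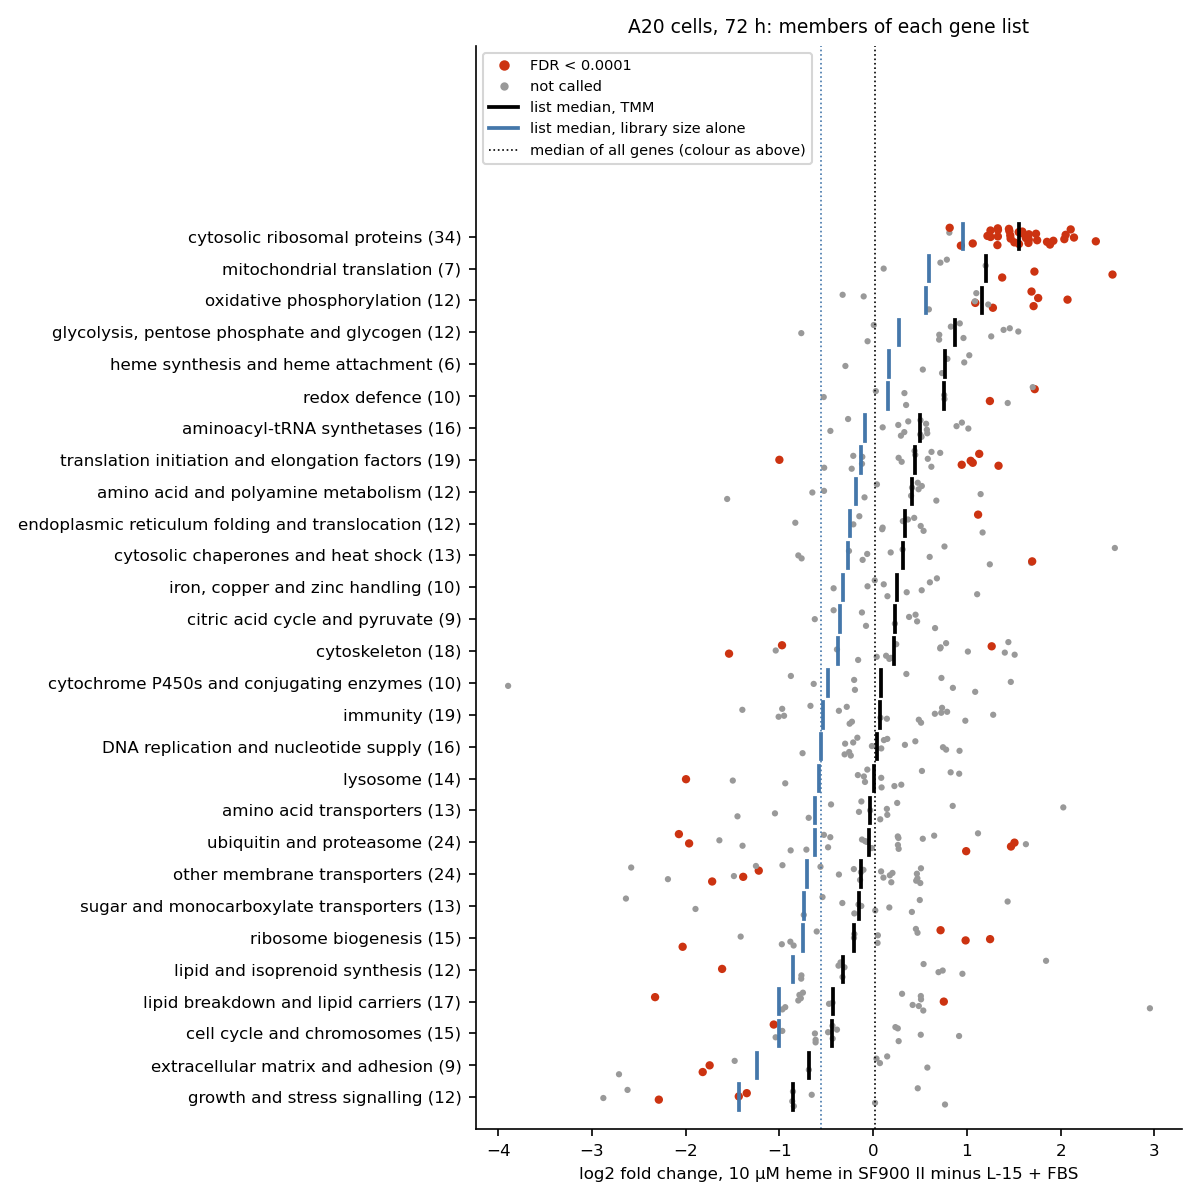
Each point is the log2 difference between heme and serum of 1 annotated gene, by list, with the list's median after TMM (black) and with library size alone (blue). Cytosolic ribosomal proteins, at a median of 1.55, and growth and stress signalling, at -0.86, stand near the ends, and the median over all genes is 0.02.

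Of 12 genes in the list of growth and stress signalling 3 fell and none rose, against the 6.38% of all genes that fell, and the median was -0.86, or -1.43 under library size alone. At an FDR of 0.05, 9 of the 12 were lower, where 30% of all genes were. The number that fell was 7, with 1 that rose, without heme replicate 1, 1 without heme replicate 3 or serum replicate 1, and 0 without serum replicate 2 or 3. The insulin-like receptor InR (AAEL002317, chr3:373286401-373542069) had 56.8, 71.4 and 73.7 CPM in serum, 99.2, 116 and 115 CPM in 0 µM heme and 18.5, 10.2 and 12.5 CPM in 10 µM heme. The 3 groups were fully separate, and heme and serum differed by -2.29 ± 0.21 (adjusted p = 2.9e-05, edgeR). The Lnk-related adaptor of receptor signalling (AAEL004125) fell by 1.43 ± 0.10 on the log2 scale, and Rheb (AAEL008179), the small GTPase that activates TOR, fell by 1.35 ± 0.11. The catalytic subunit p110 of phosphatidylinositol 3-kinase (AAEL002903) stood at -2.88 ± 0.50 and Sprouty (AAEL014510), an inhibitor of receptor tyrosine kinase signalling, at -2.62 ± 0.41, and neither passed the stricter FDR. The kinase src64b (AAEL004592), of the Src family and outside this list, rose from 3.52, 4.45 and 3.57 CPM in serum to 23.4, 37.0 and 31.1 CPM in heme, a difference of 2.98 ± 0.22 and the largest among annotated genes by the rule used for naming.

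Among annotated genes the largest fall by the rule used for naming was that of testin. Testin (AAEL009271, chr3:199715515-199781106), a LIM-domain protein of the cytoskeleton, had 55.2, 70.4 and 70.4 CPM in serum, 69.5, 78.7 and 89.4 CPM in 0 µM heme and 6.03, 1.94 and 2.97 CPM in 10 µM heme. It was low in 10 µM heme alone, with a difference from serum of -4.14 ± 0.35. A regulator of G protein signalling (AAEL003026), of the family that shortens signalling by G protein alpha subunits, fell from 538, 592 and 619 CPM to 76.1, 24.9 and 31.1 CPM, a difference of -3.73 ± 0.38. Importin beta-1 (AAEL013275), the carrier of nuclear import, and the nuclear pore glycoprotein gp210 (AAEL011505) fell by 3.45 ± 0.36 and 2.94 ± 0.12 on the log2 scale. For gp210 the serum libraries had 194, 244 and 233 CPM and the heme libraries 30.7, 25.9 and 31.1 CPM. The polarity protein crumbs (AAEL009093), known from Drosophila epithelia, fell from 70.2, 118 and 122 CPM to 16.6, 12.9 and 15.4 CPM. It was already below serum in 0 µM heme, at 34.2, 34.4 and 30.9 CPM. A receptor tyrosine phosphatase (AAEL005284), a low-density lipoprotein receptor (AAEL009806), the chromatin regulator ATRX (AAEL010502) and rabconnectin (AAEL006472) fell by 2.42, 2.33, 2.27 and 2.20 on the log2 scale.

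**Figure D3:**
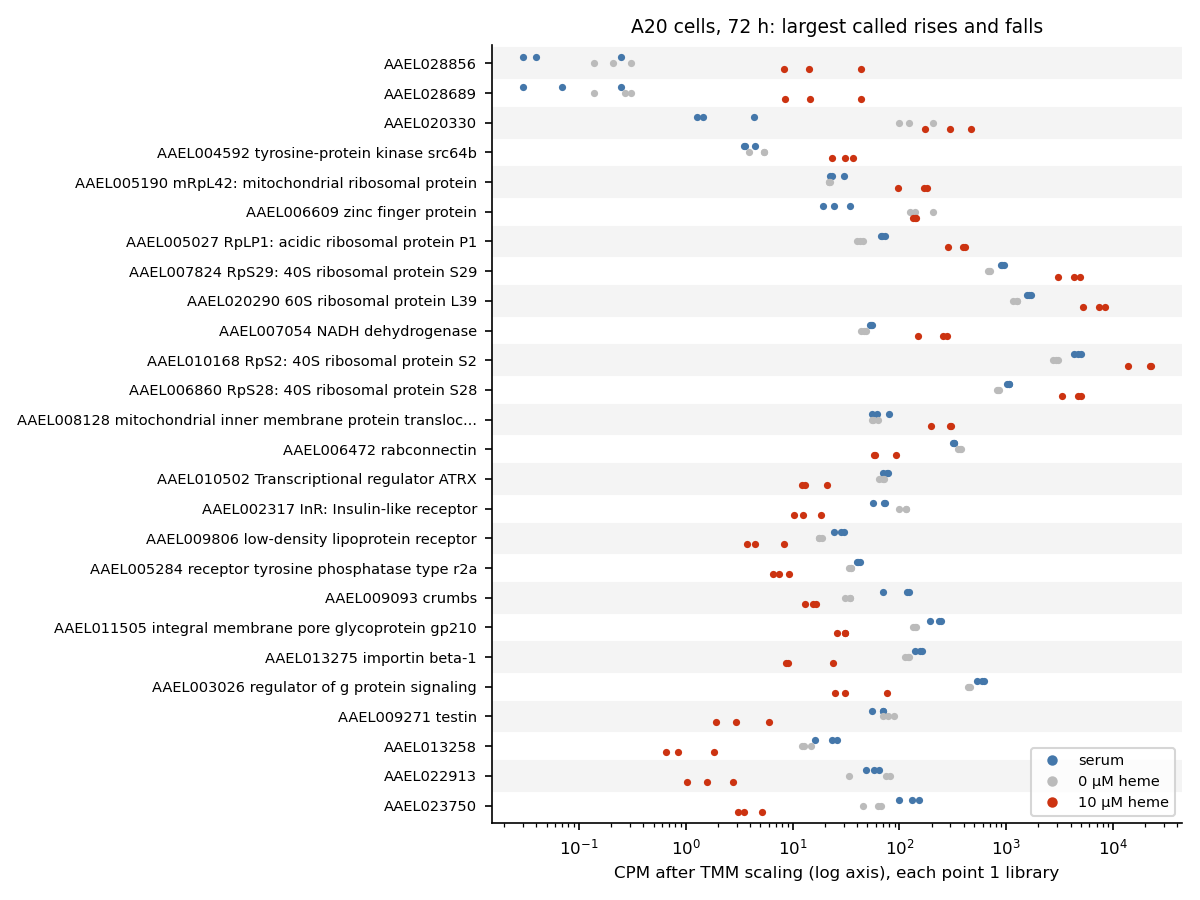
The CPM of 26 genes with the largest changes are drawn on a log axis, 1 point per library, in serum, 0 µM heme and 10 µM heme. In each gene the 3 heme points lie outside the 3 serum points, as the naming rule required, and for testin, at 6.03, 1.94 and 2.97 CPM in 10 µM heme, the 0 µM points lie with serum.

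Laminin beta-2 (AAEL003658) and gamma 1 (AAEL005187), chains of the same basement membrane trimer, were the 2 of 9 matrix and adhesion genes that fell, where 6.38% of all genes fell, with a list median of -0.69. Gamma 1 (chr2:312316-321971) had 570, 556 and 566 CPM in serum and 188, 160 and 158 CPM in heme, a difference of -1.74 ± 0.10, and beta-2 differed by -1.82 ± 0.11. The vacuolar sorting protein AAEL005861 fell from 1327, 1520 and 1509 CPM to 379, 353 and 360 CPM. It was the 1 of 14 lysosome genes that changed, where 10.8% of all genes did. Among 24 membrane transporters other than those of amino acids and sugars 3 fell and none rose, against 6.38% and 4.47% of all genes: the sodium/hydrogen exchanger AAEL002051 by 1.72, the ABC transporter AAEL005929 by 1.39 and the sodium/dicarboxylate carrier AAEL009863 by 1.22 on the log2 scale. The number that fell was 6 without heme replicate 1, 1 without heme replicate 3 or serum replicate 1, and 0 without serum replicate 2 or 3. A count of 3 of 24 is not far from the share that fell among genes with an annotated position. Of 18 cytoskeletal genes 1 rose and 2 fell, against 4.47% and 6.38% of all genes. Under library size alone 0 rose and 3 fell, against 1.57% and 11.8%. A dynein heavy chain (AAEL007132) and the tau-like AAEL012206 fell by 1.54 and 0.97, while the actin binding protein AAEL011972 rose by 1.26.

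Of 24 ubiquitin and proteasome genes 3 rose and 2 fell, against 4.47% and 6.38% of all genes, and the median was -0.04. None rose and 4 fell under library size alone, against 1.57% and 11.8% of all genes, with a median of -0.62, and the risers named next did not pass. Under that scaling the lists of redox defence, mitochondrial translation and oxidative phosphorylation each held 1 gene that rose and the ribosomal proteins 27, and no other list held any. Without heme replicate 1, 6 of the 24 rose and 7 fell, and without any other single library at most 1 rose and at most 1 fell. Among the risers were the small modifiers ubiquitin (AAEL003921) at 1.47 ± 0.13 and ubiquitin-fold modifier 1 (AAEL006251) at 1.51 ± 0.17. The conjugating enzymes AAEL013633 and AAEL006073 fell by 2.07 ± 0.19 and 1.96 ± 0.18 on the log2 scale. ATM (AAEL014900), the kinase of the DNA damage response, fell by 1.06 ± 0.11. It was the 1 of 15 cell cycle genes that changed, where 10.8% of all genes did, and the list median was -0.43. At an FDR of 0.05, 9 of the 15 were lower and 2 higher, where 30% and 29.3% of all genes were. Under library size alone 6 of the 15 fell, against 11.8% of all genes. Of 12 genes of lipid and isoprenoid synthesis 0 rose and 1 fell, and of 17 of lipid breakdown and lipid carriers 1 rose and 1 fell. Among all genes 4.47% rose and 6.38% fell. Choline/ethanolamine kinase (AAEL008853) fell by 1.61 ± 0.11, while the sterol carrier of the Niemann-Pick C2 family (AAEL006854) rose by 0.75 ± 0.08. Under library size alone 0 rose in either list, and 2 and 3 fell, against 1.57% and 11.8% of all genes. No member passed among 12 genes of glycolysis and related pathways (median 0.88), 9 of the citric acid cycle or 16 of DNA replication. Nor did any of 12 genes of amino acid metabolism, 13 amino acid transporters or 13 sugar transporters. Among 10 cytochrome P450s and conjugating enzymes and 19 immunity genes none passed either, where 10.8% of all genes did. Of the 12 glycolysis genes 9 were higher at an FDR of 0.05, where 29.3% of all genes were. Without heme replicate 1, 6 of these 12 rose. Under library size alone 1 gene each fell in the citric acid cycle, DNA replication, sugar transporter, cytochrome P450 and immunity lists. In amino acid metabolism 2 fell, where 11.8% of all genes did. For the trypsin AAEL009853, which the study names for A20 cells, serum had 5.31, 2.51 and 2.55 CPM and heme 10.1, 17.9 and 17.7 CPM, a difference of 2.13 ± 0.33 that did not pass (adjusted p = 0.00047, edgeR). Cystinosin (AAEL006113), also named for these cells, overlapped between the groups and stood at 0.37 ± 0.33. Markers of other cell types were too few among the annotated genes for a check of identity: 1 for muscle, 3 for midgut and 1 for neurons, the last of them (AAEL004559, a synaptosomal associated protein) which fell by 1.34 on the log2 scale.

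The reads of a few genes without annotation changed most. AAEL019860 (chr3:135668411-136653404) had 605, 845 and 980 CPM in serum and 11853, 43838 and 30143 CPM in heme, a rise of 5.14 ± 0.51. AAEL027243 had 226, 338 and 362 CPM in serum and 9349, 33419 and 23891 CPM in heme, a rise of 6.17 ± 0.60. In both genes heme replicate 1 was the lowest of its group and still far above serum, while the 0 µM libraries lay near serum, with differences of -0.23 and 0.00. Together with elongation factor 1-alpha, AAEL019403 and AAEL017516 these were the 5 genes with most reads in 10 µM heme.

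AAEL020330 had 4.35, 1.46 and 1.27 CPM in serum, 208, 123 and 98.1 CPM in 0 µM heme and 471, 299 and 175 CPM in 10 µM heme, high in both serum-free groups. AAEL028856 and AAEL028689 had 1, 1 and 7, and 1, 2 and 7 counts in serum, and 177, 237 and 804, and 179, 239 and 804 counts in heme. Their counts were nearly equal in each heme library, so they may share reads, and their fitted differences of 7.64 and 7.50 depend on the prior count. Among genes whatever their annotation the largest falls were in AAEL023750, from 99.2, 130 and 154 CPM to 5.23, 3.1 and 3.51 CPM, AAEL022913 and AAEL013258, at -5.003, -4.95 and -4.26. The annotated zinc finger gene AAEL006609 was high in both serum-free groups, at 207, 140 and 127 CPM in 0 µM heme and 139, 134 and 144 CPM in 10 µM heme, against 34.5, 24.4 and 19.2 CPM in serum.

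Differences moved with the span of the gene. For 1500 tested genes the annotation gave a start and an end, and this span counts introns. In 5 equal groups from the shortest genes (452 to 4954 bp) to the longest (83779 to 984994 bp), the median difference between heme and serum was 0.77, 0.36, -0.09, -0.63 and -0.66. In the shortest group 58 genes rose and 1 fell, and in the longest 6 rose and 53 fell. Across these genes, which are not independent replicates and share the same 6 libraries, Spearman's coefficient between difference and span was -0.495, and it was -0.476 without the ribosomal proteins. Under library size alone these medians were 0.18, -0.23, -0.67, -1.20 and -1.23. Each heme library showed the gradient, from 0.51, 0.87 and 0.82 in the shortest genes to -0.46, -0.72 and -0.73 in the longest, and each 0 µM library the opposite, from -0.23, -0.29 and -0.32 to 0.13, 0.18 and 0.21.

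The 33 ribosomal protein genes with a position span 489 to 18396 bp, with a median of 2504 bp, and InR, crumbs and the receptor tyrosine phosphatase, with large falls, lie in the longest group. The part of span in the rise of the one and the fall of the others was not tested, and whether the counted intervals held introns is not given in the sources used here.

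**Figure D4:**
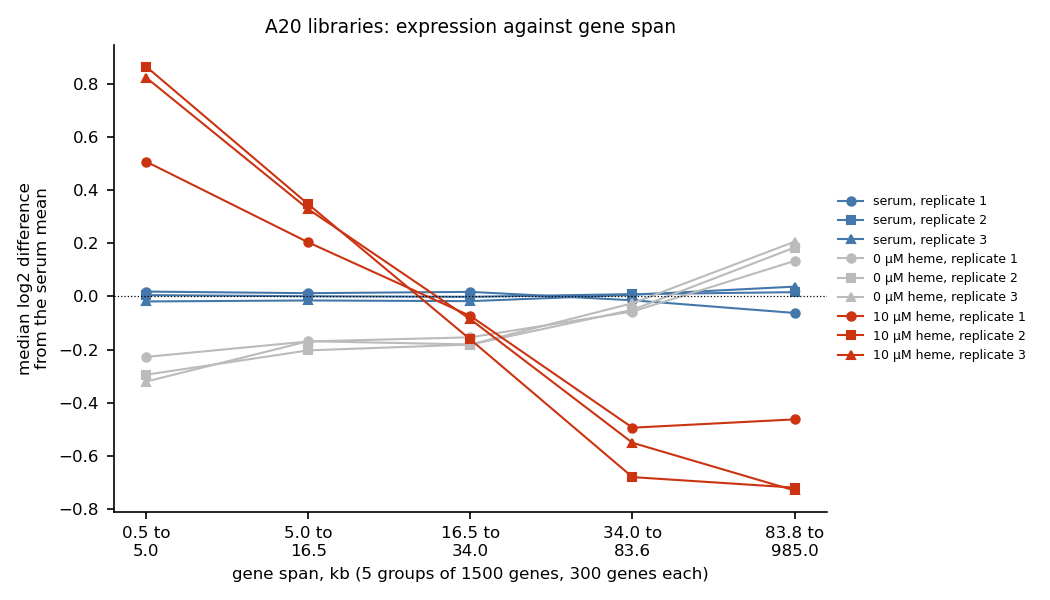
The median log2 difference from the serum mean is drawn for each library in each of 5 groups of gene span, 300 genes a group. The 3 heme lines run from 0.51 to 0.87 in the shortest group down to -0.46 to -0.73 in the longest, and the 3 lines without added heme run the other way.

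Beside the main comparison, the other contrasts of the same 9 libraries, which share groups with it, gave these values. Between 10 µM and 0 µM heme 2318 genes were called, 18.9% of those tested, and between 0 µM heme and serum 53, or 0.433%. Neither count was repeated without single libraries or with the exact test. The study's own count for 0 µM heme and serum, by the exact test, was higher than 53. On the log2 scale 0 µM and serum libraries lay 2.4 to 2.73 apart, against 2.53 to 3.1 between 10 µM heme and serum. The medians of these contrasts over all genes were -0.19 and -0.01 after TMM and -0.88 and 0.10 with library size alone. The 34 ribosomal proteins had medians of 2.14 and -0.59 in these contrasts, and all 34 rose between 0 µM and 10 µM heme. For oxidative phosphorylation the medians were 1.65 and -0.47, with 9 of 12 genes higher in 10 µM heme. Between 0 µM heme and serum testin, src64b and importin beta-1 differed by 0.28, 0.35 and -0.37, against -4.14, 2.98 and -3.45 between 10 µM heme and serum.

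Aag2, another Aedes aegypti line, was also compared after 72 h between 10 µM heme without serum and medium with serum, in L-15 in one experiment and in Schneider's medium in another. In Aag2 the basal medium was the same on both sides, whereas in A20 it changed from L-15 to SF900 II. An interaction term, fitted to the 12 libraries of each pair of experiments, asked whether the change differed between the experiments. The difference passed for 2055 genes in the L-15 experiment, 14.5% of those tested (8.42% more positive in A20), and for 1477 genes in the Schneider experiment, 10.9% (4.52% more positive in A20). All 34 ribosomal proteins passed in both, each more positive in A20, and with library size alone 31 passed in each. Under that scaling 3059 of 14199 and 1967 of 13607 genes passed in either direction. Over all genes the median of the difference was -0.21 and -0.07, and -1.18 and -0.75 with library size alone. In Aag2 the ribosomal proteins had medians of -1.06 in L-15, where 28 fell against 7.99% of all genes, and -0.36 in Schneider's medium, where none fell against 0.419%. Genes with an annotated position, in 5 groups by span, had medians of -0.34, -0.30, -0.31, -0.26 and -0.30 in Schneider's medium, near the ribosomal value. In L-15 their medians were -0.59, -0.40, -0.45, -0.47 and -0.32, and 78, 74, 85, 80 and 48 of 309 or 310 genes a group fell. Under library size alone the ribosomal medians were -0.64 and -0.24, with 19 and 0 lower and 1 and 0 higher, where the medians over all genes were 0.45 and 0.12.

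The change of RpS2 differed between A20 and Aag2 by 3.50 in L-15 and 2.52 in Schneider's medium, and RpLP1 by 3.73 and 3.08. Of the 12 genes of oxidative phosphorylation 10 and 8 passed, with library size alone 6 and 5, where 3059 of 14199 and 1967 of 13607 genes passed. InR, which fell in A20, differed by -2.36 and -2.21, and testin by -3.33 and -3.46. Crumbs fell in Aag2 as well, at -2.66 and -2.17 against -2.78 in A20, and the adjusted p of the difference was 0.7 and 0.07 (edgeR). Cell line, experiment and the change of basal medium, which took place in A20 alone, cannot be told apart in these differences.

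**Figure D5:**
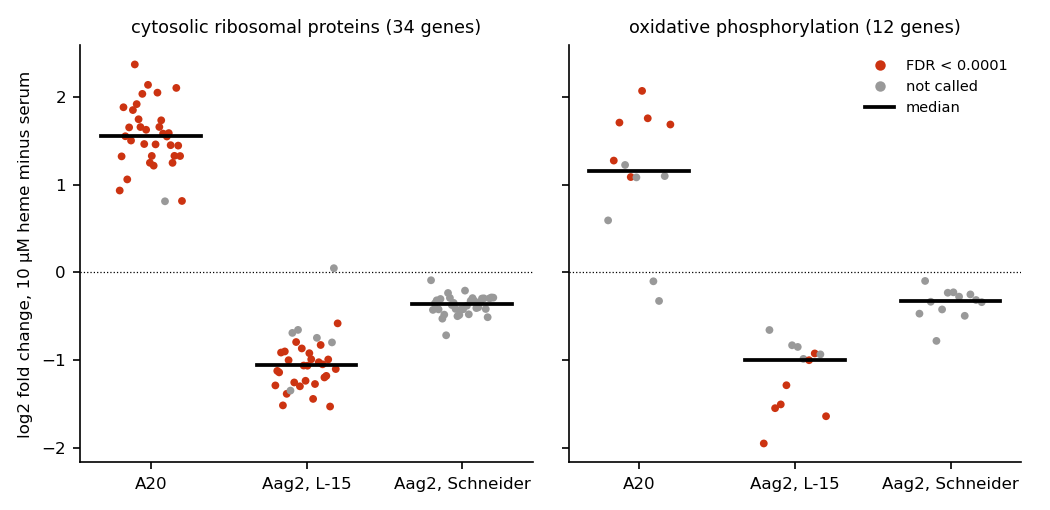
Each point is the log2 difference between heme and serum of 1 gene, for cytosolic ribosomal proteins and oxidative phosphorylation, in A20 and in Aag2 of the L-15 and Schneider experiments. The ribosomal proteins have medians of 1.55 in A20, -1.06 in Aag2 in L-15 and -0.36 in Aag2 in Schneider's medium.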

How the data were processed

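Poly(A) RNA of A20 cells was sequenced by the authors (HISAT2 2.1.0 on AaegL5, mapping quality filter, BEDtools 2.19.1), and the deposited values are raw counts for 19712 genes; whether strand or introns entered the counting is not given in the sources used here. A single fit of all 9 A20 libraries was made with edgeR 4.0.16 in R 4.3.3 (filterByExpr, TMM, quasi-likelihood F test, Benjamini-Hochberg, FDR below 0.0001); DESeq2 1.42.0, the exact test and other scalings and filters were alternatives. Depth was 23843591 to 27586128 counts a library. On simulated counts for 11995 genes the fit recovered 70.5% of 200 genes changed 4-fold, all with a mean above 10 CPM. The replicates of a group were drawn from the same means there, unlike heme replicate 1, so the rate need not hold for the real libraries. Differences between A20 and Aag2 were tested as interactions in joint fits of 12 libraries. Gene names came from the readable part of the study's tables (792 names, 768 tested). Named genes were the largest called changes with separate groups and at least 10 CPM, the leading members of each list, iron and heme genes, genes the study names, and the 5 genes with most reads. The members and lists were chosen with earlier results of these data known. Replicate numbers were given no pairing, since same-number deviations correlated at -0.0156, 0.0109 and 0.0276.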

Additional observations from a re-analysis of the deposited data

Results flagged for a closer look

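The following genes changed differently between heme and serum in A20 than in Aag2, by the interaction test of edgeR's quasi-likelihood fit with Benjamini-Hochberg adjustment, with the log2 difference as A20 minus Aag2. More positive in A20, in L-15 and Schneider's medium in turn, were src64b (AAEL004592) at 4.57 and 3.82, RpLP1 (AAEL005027) at 3.73 and 3.08, RpS2 (AAEL010168) at 3.50 and 2.52, RpS29 (AAEL007824) at 3.21 and 2.61, the NADH dehydrogenase gene AAEL007054 at 2.93 and 2.29, L39 (AAEL020290) at 2.91 and 2.60, RpS28 (AAEL006860) at 2.70 and 2.37, the zinc finger gene AAEL006609 at 2.45 and 2.63, mRpL42 (AAEL005190) at 2.34 and 3.59, and RpS7 (AAEL009496) at 2.14 and 1.41. In Schneider's medium only, AAEL020330 at 6.50 and AAEL008128 at 2.22 were past the threshold, and rabconnectin (AAEL006472) at -2.07; the contrast between the media was not tested.

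More negative in A20 were AAEL023750 at -4.84 and -5.01, AAEL022913 at -4.61 and -4.55, AAEL013258 at -4.34 and -4.17, testin (AAEL009271) at -3.33 and -3.46, the regulator of G protein signalling (AAEL003026) at -3.14 and -3.28, InR (AAEL002317) at -2.36 and -2.21, the receptor tyrosine phosphatase (AAEL005284) at -2.12 and -2.31, ATRX (AAEL010502) at -1.74 and -2.03, and gp210 (AAEL011505) at -1.40 and -2.50. Among lists, 34 and 34 ribosomal proteins and 10 and 8 genes of oxidative phosphorylation were more positive in A20. Cell line, experiment and the change of basal medium, made in A20 alone, cannot be told apart.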

How the results depend on the processing

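The stricter threshold made the counts unstable. The 1329 genes called (547 higher, 782 lower) were 4261 with DESeq2 (2044, 2217), 3930 with the exact test (1819, 2111), 36 with the replicate block (7, 29) and 7266 at an FDR of 0.05 (3591, 3675). With library size alone 192 were higher and 1449 lower. In a fit of only the 6 libraries compared none was called (0 higher, 0 lower): the smallest adjusted p was 0.000195, and 7115 genes had an unadjusted p under 0.05. Leaving out 1 library each gave 63 to 3277 genes (2 to 1535 higher, 61 to 1742 lower). Of 34 ribosomal proteins 0 passed in the fit of 6 libraries and 0 with the block, and 0 to 33 without 1 library.

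The count of genes whose change differed between A20 and Aag2, 2055 in L-15 and 1477 in Schneider's medium, was 4507 and 3960 with DESeq2, 570 and 148 with the replicate block, 7628 and 6827 at an FDR of 0.05, and 1220 to 4044 and 634 to 3791 without 1 library each.

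None of the 61 named genes past the threshold changed direction under any alternative, but their calls were less stable. All 61 kept their call with DESeq2 and the exact test, and 40 with library size alone. In the fit of 6 libraries 0 did, with the replicate block 4, without serum replicate 1, 2 or 3 19, 5 or 6, and without heme replicate 3 16. Among those not past it, library size alone turned AAEL001206 to -0.0037, AAEL001495 to -0.449, AAEL002833 to -0.2859, AAEL003285 to -0.4809, AAEL005213 to -0.4094, AAEL006113 to -0.1751, AAEL008517 to -0.4972, transferrin AAEL011641 to -0.2217, AAEL012440 to -0.0794 and AAEL017096 to -0.1295. Leaving out 1 library each, the ranges of 6 uncalled genes crossed 0: AAEL001091 from -0.1881 to 0.1242, AAEL001495 from -0.2547 to 0.3033, AAEL005213 from -0.1277 to 0.3399, AAEL006113 from -0.1205 to 0.6407, AAEL008517 from -0.0396 to 0.3094 and AAEL010977 from -0.3698 to 0.0125. The cause was not tested. Fold changes of genes near 0 counts are limited by depth.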
